A study of Mus musculus with 6 samples.

Results

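In 6 mouse hearts, 9 genes of adrenergic and muscarinic signalling, including the path to cAMP and its kinase, were measured. They were taken by gene symbol from the deposited table of 14956 genes. All 9 were found there, each once, and all 9 had a mean of at least 1 FPKM (fragments per kilobase of transcript, scaled to the mapped fragments of the library), the level above which 11096 genes were tested. The members are the receptor genes Adrb1, Adra1a, Adra1b and Chrm2, the G protein genes Gnas and Gnai2, the adenylyl cyclase genes Adcy5 and Adcy6, and the kinase gene Prkaca.

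Hearts came from 3 wild-type mice (Otub1 +/+, WT 1 to WT 3) and 3 mice with 1 disrupted Otub1 copy (Otub1 +/-, Het 1 to Het 3), and each library is 1 heart. Every mouse of both genotypes had received doxorubicin, an anthracycline drug that injures the heart, in 6 injections over 2 weeks. No untreated heart is among the samples, so the values describe genotypes under treatment. Age, sex, strain and the design of the Otub1 allele are not given in the sources used here, and the heterozygous deletion is not stated to be limited to any cell type.

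In heart muscle, noradrenaline and adrenaline bind beta1 receptors, which act through the stimulatory G protein to switch on adenylyl cyclase. The cAMP that results releases the catalytic subunit of protein kinase A (PKA), which phosphorylates calcium-handling and sarcomere proteins and makes the heart beat harder and faster. Acetylcholine from the vagus nerve opposes this through M2 receptors and inhibitory G proteins. Alpha1 receptors respond to the same catecholamines but mainly use Gq and phospholipase C.

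The promoters of 3 members are printed, chosen by the difference from the WT mean on the log2(FPKM + 1) scale: Prkaca, the lowest member in Het 1, Adrb1, the highest in Het 2 and Het 3, and Chrm2, the lowest receptor in Het 1. For Prkaca, which has 2 annotated windows, the upstream one is shown. Each is 300 bases, from 250 before to 50 after the annotated start site, in RefSeq on GRCm38.p6, on the plus strand. Capitals mark TGACG, the half-site of the cAMP response element, read on either strand (as CGTCA on the other).
Prkaca, chr8:83972728-83973027: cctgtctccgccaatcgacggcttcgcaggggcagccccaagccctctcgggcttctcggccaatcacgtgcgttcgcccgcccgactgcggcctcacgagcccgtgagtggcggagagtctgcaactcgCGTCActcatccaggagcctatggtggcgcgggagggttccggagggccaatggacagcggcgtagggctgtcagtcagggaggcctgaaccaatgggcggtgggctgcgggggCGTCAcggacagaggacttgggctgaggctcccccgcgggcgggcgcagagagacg
Adrb1, chr19:56721867-56722166: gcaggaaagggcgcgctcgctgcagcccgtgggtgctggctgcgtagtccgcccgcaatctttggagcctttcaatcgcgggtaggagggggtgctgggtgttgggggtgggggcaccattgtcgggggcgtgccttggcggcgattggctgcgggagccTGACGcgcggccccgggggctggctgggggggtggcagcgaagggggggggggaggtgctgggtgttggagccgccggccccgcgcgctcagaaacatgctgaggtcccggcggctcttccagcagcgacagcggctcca
Chrm2, chr6:36387834-36388133: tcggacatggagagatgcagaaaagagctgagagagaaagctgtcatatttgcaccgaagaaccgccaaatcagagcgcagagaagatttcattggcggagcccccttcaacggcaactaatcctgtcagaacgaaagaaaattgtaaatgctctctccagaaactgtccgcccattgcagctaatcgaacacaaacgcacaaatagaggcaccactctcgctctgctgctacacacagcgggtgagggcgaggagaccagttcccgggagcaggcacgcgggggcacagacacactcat
The printed Prkaca window held 2 half-sites and its other window 0, the Adrb1 window 1 and the Chrm2 window 0. The table held 11 start sites for 6 of the 9 members (Adrb1, Adra1b, Chrm2, Gnas, Adcy5 and Prkaca), and 5 of these windows had a half-site, against 20.8% of 32851 promoter windows of the same length. Of these 5, 3 belong to Gnas, and 2 of those overlap, being offset by 19 bases, and hold the same site. By gene, 3 of the 6 members (Gnas, Prkaca and Adrb1) had one. The full element TGACGTCA, which contains the half-site on both strands, was in 0 of the 11 windows and in 1.79% of all. A match describes letters only.

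Otub1, the targeted gene, stood at 15.4, 14.9 and 14.2 FPKM (WT 1, 2 and 3) and at 4.83, 6.48 and 6.65 FPKM (Het 1, 2 and 3), so every Het heart lay below every WT heart. Its difference was −1.19 (SE 0.19) on the log2(FPKM + 1) scale, with an adjusted p of 0.376 by limma and an exact two-sided permutation p of 0.1, the smallest possible here. The authors' deposited table lists Otub1 at −1.31 (log2 fold change), adjusted p 1.62e-17. Het 1 stood apart from the other 5 libraries. Its highest correlation with another library across genes was 0.911 on the log2(FPKM + 1) scale, against 0.974 to 0.988 for the others, and mitochondrial transcripts made up 65.0% of its summed FPKM against 51.5% to 56.1%. Of the 8 ventricular cardiomyocyte markers, all 8 were lower in Het 1 than in every WT heart, and their summed FPKM was 7726 against 16143 to 18293 across WT, with 14390 for Het 2 and 14332 for Het 3. In Het 2 and in Het 3, 6 of the 8 were also below every WT heart. The markers ranged in Het 1 from Actc1, at 1086 FPKM against 5896 to 7519 in WT, to Tnni3, at 1100 FPKM against 1134 to 1257. Of 8 fibroblast markers 7, 6 and 2 were below every WT heart in Het 1, 2 and 3, and of 5 listed conduction system markers 4, 2 and 4. Of 8 endothelial markers, 3 were below and 3 above every WT heart in Het 1. Het 3 held lung epithelial transcripts (summed FPKM over 10 markers 843, at most 0.944 in any other heart). Hepatocyte transcripts, over 13 listed markers, summed to 128 to 182 FPKM in WT and to 2.70, 45.7 and 2.04 in Het 1, 2 and 3. Erythroid transcripts, over 9 markers, summed to 1013 to 1402 FPKM in WT and to 5719, 2414 and 685 in Het 1, 2 and 3, with 8, 8 and 0 of the 9 above every WT heart. Of the 8 smooth muscle and pericyte markers, 4 were above and 4 below every WT heart in Het 1, among them Tagln at 32.2 FPKM against 3.65 to 6.77 in WT.

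Adrb1 encodes the beta1 receptor, the main adrenergic receptor of heart muscle cells. It lies on chromosome 19 (56722199 to 56733113, plus strand, GRCm38). Its level was 2.75, 3.52 and 3.67 FPKM (WT 1, 2 and 3) and 1.01, 5.34 and 5.00 FPKM (Het 1, 2 and 3). Het 2 and Het 3 were above every WT heart and Het 1 was below every one, so the Het hearts lay on both sides of WT. The means were 3.31 ± 0.495 FPKM (WT) against 3.78 ± 2.41 FPKM (Het, SD, n = 3 each). The difference of Het from WT on the log2(FPKM + 1) scale was −0.02 (SE 0.45, 95% interval −1.08 to 1.05), and limma's adjusted p over all 11096 genes was 0.988. In bulk tissue fewer cells of a type and less RNA per cell cannot be told apart, here and in all that follows. The authors' deposited table gives a log2 fold change of 0.19, with an adjusted p of 0.925. That fold change matches the log2 ratio of the mean FPKM values above. The −0.02 instead averages log2(FPKM + 1) over hearts, so the signs can differ.

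Without Het 1, Adrb1 was 1 of 9 members below an unadjusted limma p of 0.05, and the other 8 were above it. The difference was then 0.52 (SE 0.12, 95% interval 0.24 to 0.81, unadjusted p 0.0035, adjusted p 0.247 by limma), so it did not pass over all genes. At that unadjusted threshold, 12.4% of all tested genes were called in that comparison. Both remaining Het hearts lay above every WT heart for Adrb1 (1 of 9 members), as they did for 10.9% of all tested genes. Both lay below every WT heart for Gnas and Gnai2 (2 of 9), as they did for 21.8%.

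Adra1a and Adra1b encode 2 alpha1 receptors, which couple to Gq. Adra1a (chromosome 14, 66635251 to 66771168, plus strand) had the lowest level of the 9 members, at 2.66, 1.56 and 1.61 FPKM (WT 1, 2 and 3) and 0.299, 2.54 and 2.85 FPKM (Het 1, 2 and 3). Het 3 was above every WT heart and Het 2 between WT 1 and the other WT hearts, while Het 1 was below every other heart. The difference was −0.16 (SE 0.43, 95% interval −1.18 to 0.87, adjusted p 0.876 by limma), and without Het 1 it was 0.35 (95% interval −0.06 to 0.76, adjusted p 0.459).

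Adra1b (chromosome 11, 43774606 to 43901210, minus strand) stood at 8.05, 5.53 and 9.51 FPKM across WT 1, 2 and 3. Its Het levels were 0.902, 7.73 and 6.50 FPKM for Het 1, 2 and 3. Only Het 1 lay outside the WT range, and its level was 8.53-fold below the WT mean. The difference was −0.77 (SE 0.58, 95% interval −2.17 to 0.63, adjusted p 0.753 by limma), and without Het 1 it was −0.08 (95% interval −0.58 to 0.42). Adra1b is also known from liver. Its level was below the WT range in Het 1 and within it in Het 2 and in Het 3. Of the 13 hepatocyte markers, 13, 12 and 13 were below every WT heart in Het 1, 2 and 3. Their part in its level was not tested.

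Chrm2 encodes the M2 muscarinic receptor, through which the vagus nerve slows the heart. It lies on chromosome 6 (36388084 to 36528414, plus strand). Its level was 14.9, 14.5 and 19.5 FPKM (WT 1, 2 and 3) and 2.18, 17.5 and 14.9 FPKM (Het 1, 2 and 3). Het 2 and Het 3 lay inside the WT range and Het 1 was 7.497-fold below the WT mean. The difference was −0.81 (SE 0.66, 95% interval −2.40 to 0.77, adjusted p 0.753 by limma). Without Het 1 it was −0.004 (95% interval −0.36 to 0.35, adjusted p 0.993). Chrm2 is richer in atria than in ventricles. Of the 4 listed atrial markers, Stard10 and Tbx5 were lowest in Het 1, at 2.68 FPKM against 4.72 to 5.64 in WT and at 1.49 FPKM against 3.52 to 4.68 in WT. Nppa stood at 230 FPKM in Het 1, inside its WT range of 110 to 380, and Nr2f2 at 1.46 FPKM, above its WT range of 0.975 to 1.37. Their part in the level of Chrm2 was not tested.

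**Figure D1:**
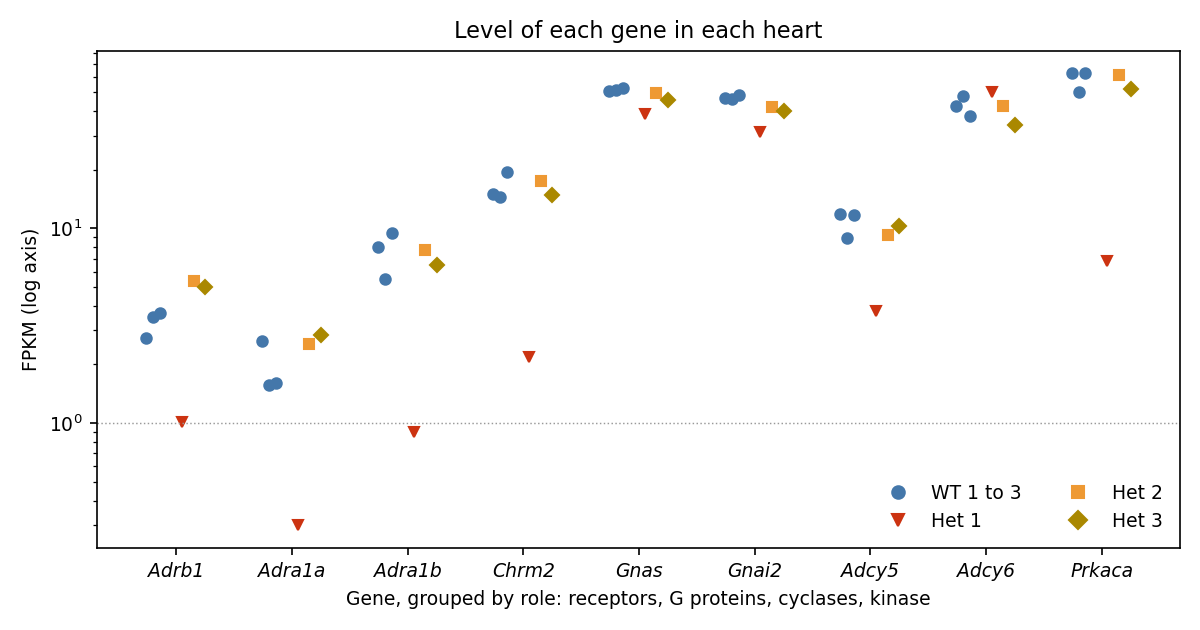
FPKM (log axis) of each of the 9 genes in each heart, 1 point per heart, with WT as circles and each Het heart as its own symbol; the dotted line is 1 FPKM. Het 1 is the lowest of the 6 hearts for 8 of the 9 genes, and for Adcy6 it is the highest.

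Gnas encodes the stimulatory G protein alpha subunit that couples beta receptors to adenylyl cyclase, from an imprinted locus with several promoters. It lies on chromosome 2 (174284320 to 174346744, plus strand). Its level was the least variable of the members within WT, at 51.0, 51.2 and 52.9 FPKM, and it was 38.6, 49.7 and 45.5 FPKM in Het 1, 2 and 3. Every Het heart was below every WT heart. The means were 51.7 ± 1.06 FPKM (WT) against 44.6 ± 5.60 FPKM (Het, SD, n = 3 each). The difference was −0.22 (SE 0.21, 95% interval −0.72 to 0.29, adjusted p 0.753 by limma). Relative to the median gene, which itself stood at −0.18, it was −0.04, and its sign turned with quantile normalization (0.09).

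Gnai2 encodes an inhibitory G protein alpha subunit, which carries the M2 signal and lowers cAMP. It lies on chromosome 9 (107614125 to 107635367, minus strand). It stood at 47.0, 46.4 and 48.7 FPKM (WT 1, 2 and 3) and at 31.2, 42.0 and 40.3 FPKM (Het 1, 2 and 3), and its groups did not overlap either. The means were 47.3 ± 1.20 FPKM (WT) against 37.8 ± 5.81 FPKM (Het, SD, n = 3 each). The difference was −0.33 (SE 0.22, 95% interval −0.85 to 0.19, adjusted p 0.753 by limma), or −0.15 relative to the median gene. Without Het 1 it was −0.20 (95% interval −0.41 to 0.01, adjusted p 0.419). The groups thus did not overlap for 2 of 9 members (22.2%), both lower in Het, against 15.6% of all tested genes in that direction, which is near the background. In the other direction it was 0 of 9, against 1.83%.

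Adcy5 and Adcy6 encode the adenylyl cyclases that heart muscle uses most. Adcy5 (chromosome 16, 35154877 to 35305738, plus strand) stood at 11.8, 8.89 and 11.8 FPKM (WT 1, 2 and 3) and at 3.75, 9.31 and 10.3 FPKM (Het 1, 2 and 3). Het 1 was the one heart outside the WT range, 2.88-fold below the WT mean. The difference was −0.52 (SE 0.36, 95% interval −1.37 to 0.34, adjusted p 0.753 by limma), and −0.12 without Het 1.

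Adcy6 (chromosome 15, 98589973 to 98610076, minus strand) was the member highest in Het 1. It stood at 42.7, 47.8 and 38.1 FPKM across WT 1, 2 and 3, and at 50.0, 42.7 and 34.1 FPKM across Het 1, 2 and 3. Het 1 was above every WT heart, Het 2 inside the WT range and Het 3 below it. The difference was −0.03 (SE 0.24, 95% interval −0.60 to 0.54, adjusted p 0.958 by limma).

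Prkaca encodes the main catalytic subunit of PKA, the kinase that cAMP releases. It lies on chromosome 8 (83972993 to 83996443, plus strand). Its level was 62.7, 50.5 and 62.7 FPKM (WT 1, 2 and 3) and 6.83, 61.5 and 52.3 FPKM (Het 1, 2 and 3). Het 2 and Het 3 lay inside the WT range, while Het 1 held 11.7% of the WT mean. Of all tested genes, Prkaca was at percentile 0.225 for the difference of Het 1 from WT, next to Chrm2 at 0.847 and Adra1b at 1.62. The means were 58.6 ± 7.03 FPKM (WT) against 40.2 ± 29.3 FPKM (Het, SD, n = 3 each). The difference was −1.001 (SE 0.78, 95% interval −2.87 to 0.87, adjusted p 0.753 by limma). Without Het 1 it was −0.04 (95% interval −0.36 to 0.28, adjusted p 0.919).

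Set against all genes, none of the 9 members passed limma's test at an adjusted p under 0.05 (0 of 9), where 0.018% of all tested genes did, and 0 of 9 had one under 0.05 before adjustment, where 3.88% did. The members' median difference was −0.33 and that of all tested genes −0.18. Without Het 1 the medians were −0.08 and −0.04, and again 0 of 9 passed, where 0.0721% of all genes did. By the authors' deposited table, again 0 of 9 members have an adjusted p under 0.05, against 1.02% of its genes. The members' adjusted p values there lie between 0.879 and 0.998. The intervals above are wide, and a missed threshold does not show that the genotypes were alike.

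**Figure D2:**
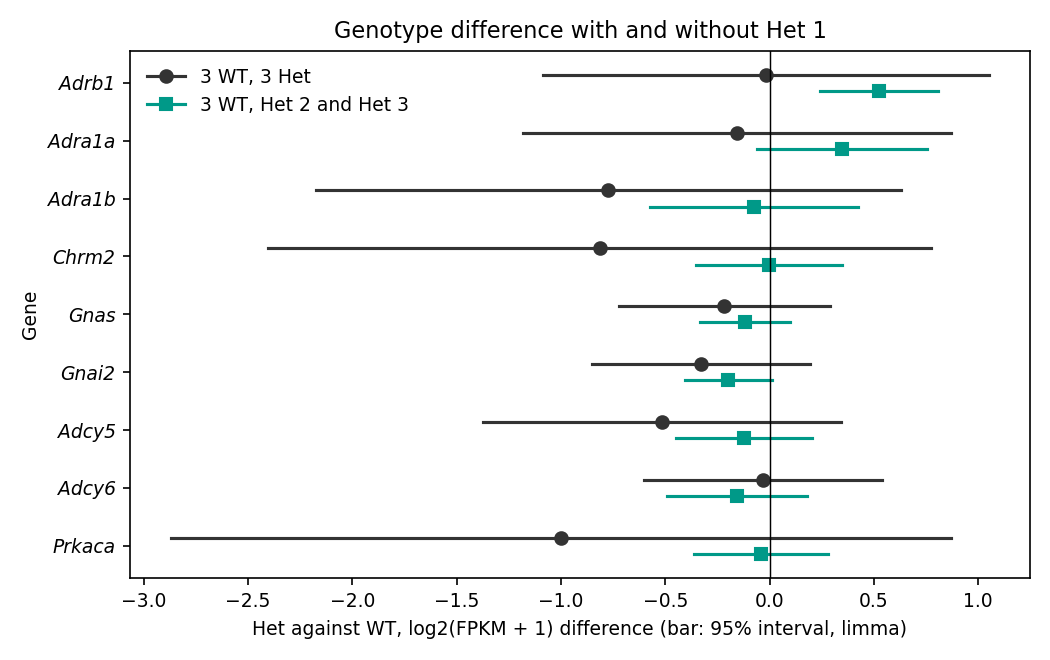
Difference of Het from WT in log2(FPKM + 1) for each gene, with 95% intervals from limma; circles use all 6 hearts and squares leave out Het 1. Every interval from all 6 hearts includes 0, and without Het 1 the interval of Adrb1 lies above 0.

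The Het hearts differed among themselves. In Het 1, 6 of 9 members (66.7%) stood at or below 50% of the WT mean, namely Adrb1, Adra1a, Adra1b, Chrm2, Adcy5 and Prkaca, where 33.8% of all tested genes did. In Het 2 and in Het 3 it was 0 of 9, where 1.51% and 1.59% of all genes did. Their median difference from the WT mean was −1.16 in Het 1, where the median of all tested genes was −0.45. It was 0.03 in Het 2 and −0.16 in Het 3, against −0.03 and −0.04 for all genes. This compares 1 heart with 3 and has no test. The members share their library. The part of the lower cardiomyocyte and fibroblast markers, the higher erythroid and contractile smooth muscle markers and the higher mitochondrial share of Het 1 in these values was not tested.

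Relative to the median gene of Het 1 the members ranged from −2.47 for Prkaca to 0.68 for Adcy6. Gnas (0.04) and Gnai2 (−0.13) stood close to the median gene. The 4 receptors, Adcy5 and Prkaca were further below it, and Adcy6 was above it.

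**Figure D3:**
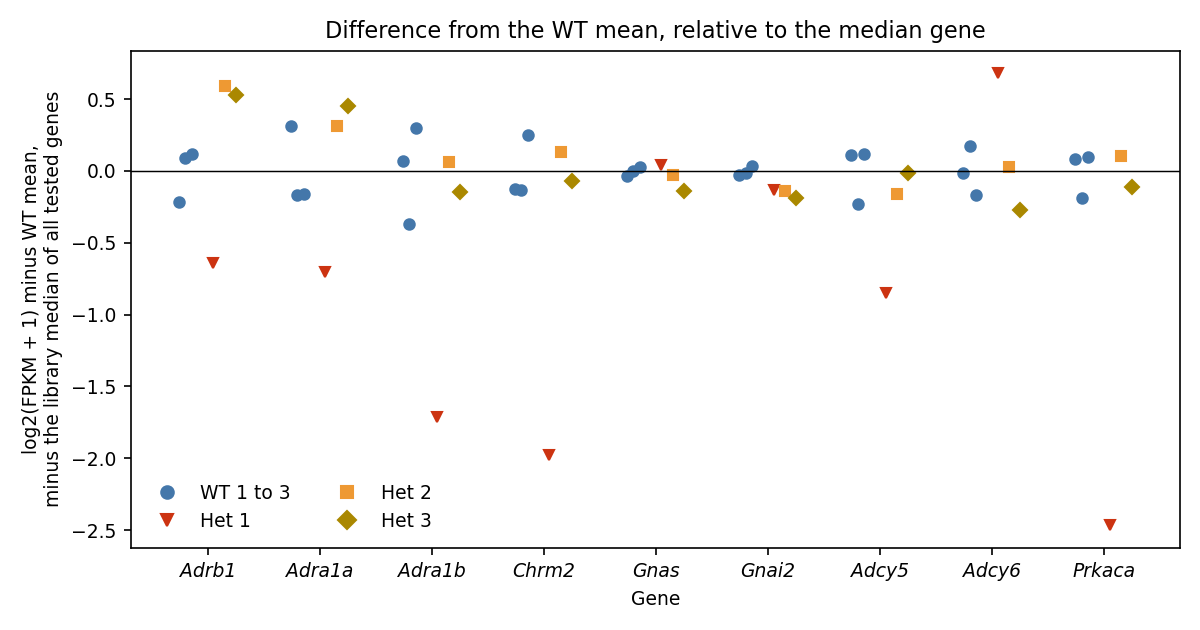
Difference of each heart from the WT mean in log2(FPKM + 1), with the median over all 11096 tested genes of the same library subtracted, 1 point per heart. Het 1 is far below the other hearts for Prkaca, Chrm2 and Adra1b, near 0 for Gnas and Gnai2, and above 0 for Adcy6.

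By level in WT, per length of transcript, the order was Prkaca, Gnas, Gnai2, Adcy6, Chrm2, Adcy5, Adra1b, Adrb1 and Adra1a. The WT ranges of neighbours overlapped for Prkaca and Gnas, for Gnai2 and Adcy6, and for Adcy5 and Adra1b, and were separate for the other neighbours. In Het, Adcy6 and Chrm2 were the one pair of neighbours whose ranges did not overlap.

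A ratio of genes, or of sums of genes, within a heart does not change when a library is scaled by a single factor. In all, 5 such ratios were computed, chosen after the values were seen. The last of them sums PKA subunits and so includes genes outside the members. Adra1b to Adrb1 was 2.93, 1.57 and 2.59 (WT 1, 2 and 3) and 0.896, 1.45 and 1.299 (Het 1, 2 and 3). Chrm2 to Adrb1 was 5.44, 4.12 and 5.31 in WT and 3.27 or less in every Het heart (2.16, 3.27 and 2.97). For both ratios the Het hearts lay below all WT hearts, as 5.58% of all tested genes were when divided by Adrb1. Gnas to Gnai2 was 1.09, 1.10 and 1.09 (WT 1, 2 and 3) and 1.24, 1.18 and 1.13 (Het 1, 2 and 3). That ratio was higher in every Het heart, as 13.6% of all tested genes were when divided by Gnai2. Each of these 3 had an exact permutation p (two-sided) of 0.1, the lowest that 3 hearts against 3 allow, and of 0.167 adjusted over the 5 ratios. Neither p accounts for choosing the ratios after the values were seen.

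The other ratios overlapped between genotypes. Adcy6 to Adcy5 was 3.62, 5.38 and 3.24 (WT 1, 2 and 3) and 13.3, 4.59 and 3.32 (Het 1, 2 and 3), so Het 1 alone was outside the WT range. The summed PKA regulatory subunits relative to the catalytic subunits stood at 1.40, 1.51 and 1.55 (WT 1, 2 and 3) and at 2.56, 1.27 and 1.59 (Het 1, 2 and 3). Their exact permutation p values were 0.6 and 0.7.

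**Figure D4:**
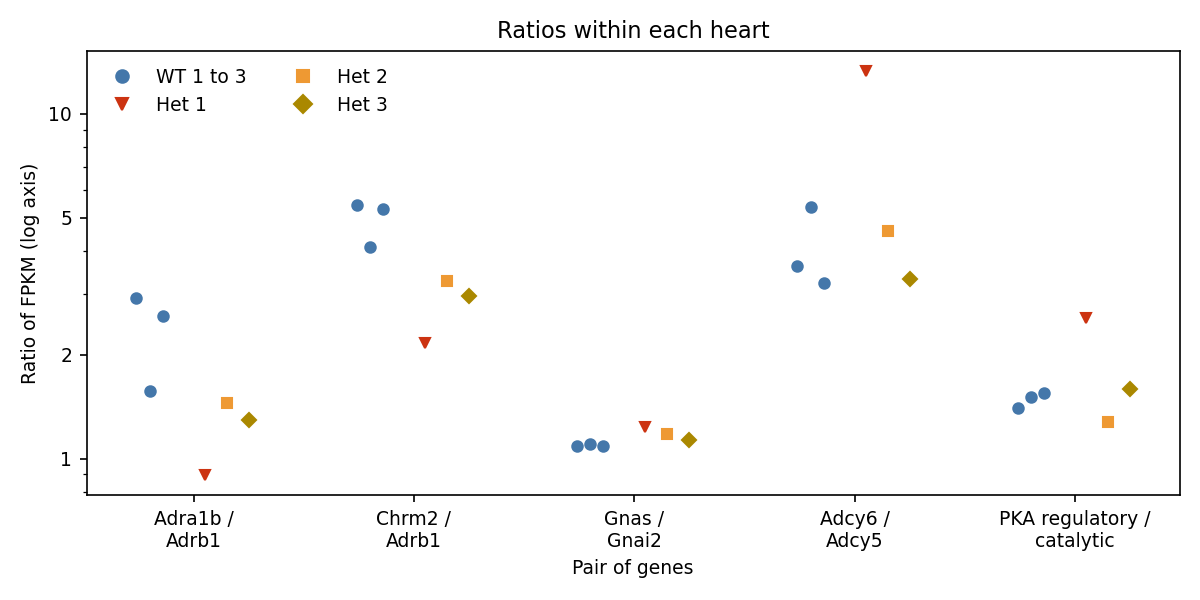
Ratio of FPKM (log axis) between pairs of genes within each heart, 1 point per heart; the last pair is the sum of Prkar1a, Prkar1b, Prkar2a and Prkar2b over the sum of Prkaca and Prkacb. The ratios to Adrb1 are lower, and Gnas to Gnai2 is higher, in all 3 Het hearts than in all 3 WT hearts.

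The rest of the pathway was read from 12 gene lists of 150 different gene symbols, older names of the same gene included. Of these symbols, 123 were in the table and 102 were tested. In limma's test 0 of 102 passed over all genes, and before adjustment 2 (Akap12 and Nr4a3) were lower and 0 higher at the same threshold. Before adjustment 342 of all 11096 tested genes were lower and 89 higher, together 3.88%. By the authors' deposited table, again 0 of the 102 have an adjusted p under 0.05 and 8 (7.84%) an unadjusted one, against 7.08% of all its genes. The median difference was −0.19, against −0.18 for all tested genes. The groups did not overlap for 14 lower and 3 higher genes. Those are 13.7% and 2.94% of the 102, against 15.6% and 1.83% of all tested genes.

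Of the 10 other receptor genes listed, 2 were tested and 0 passed, and 1 of the 2 stood at or below 50% of the WT mean in Het 1. That one was Adra1d, another alpha1 receptor, at 0.0794 FPKM against 1.23 to 1.70 FPKM in WT.

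Among 15 other G protein genes tested, 0 passed and 3 were lower in every Het heart, which is 20% against 15.6% of all tested genes. These were Gnb5, at 7.47 ± 0.632 FPKM (WT) against 4.48 ± 2.14 FPKM (Het), Gnai3, at 8.90 ± 0.843 and 6.35 ± 1.46 FPKM, and Gnb1, at 20.6 ± 0.570 and 17.0 ± 1.17 FPKM (SD, n = 3 each). Gnb1 and Gnb5 encode beta subunits, and Gnai3 a further inhibitory alpha subunit. All 3 had an adjusted p of 0.753 by limma. Without Het 1 the difference of Gnb5 went from −0.71 to −0.35 and that of Gnai3 from −0.45 to −0.29. The median of the list was −0.15.

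Of the other adenylyl cyclases 3 were tested, and they differed in where Het 1 stood. Adcy7 was highest in Het 1, at 5.64 FPKM against 1.74 to 3.05 FPKM in WT. Adcy4 was highest there too, at 13.8 FPKM against 5.70 to 8.82 FPKM in WT. Adcy9 was lowest there, at 0.571 FPKM against 1.89 to 3.16 FPKM in WT. None of the 3 passed (adjusted p 0.753, 0.856 and 0.928 by limma).

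The other PKA genes were low in Het 1, as Prkaca was. All 5 tested subunits and inhibitors stood at or below 50% of the WT mean in Het 1, where 33.8% of all tested genes did, and 0 of 5 did so in Het 2 or Het 3. Prkar1a, the main regulatory subunit in heart, stood at 82.3, 73.7 and 92.6 FPKM (WT 1, 2 and 3) and at 19.8, 71.5 and 78.4 FPKM (Het 1, 2 and 3). Pkia, a PKA inhibitor peptide, stood at 38.4 ± 6.14 FPKM for WT (SD, n = 3) and at 6.93, 46.7 and 45.2 FPKM for Het 1, 2 and 3. Pkig, another inhibitor, stood at 33.8 ± 0.991 FPKM for WT (SD, n = 3) and at 16.2, 32.7 and 30.5 FPKM for Het 1, 2 and 3. The adjusted p values were 0.753, 0.761 and 0.753 by limma. The list's median in Het 1 was −1.76, against −0.45 for all tested genes.

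A-kinase anchoring proteins hold PKA near its substrates, and 0 of 9 tested passed. Akap12 was lower in all 3 Het hearts, at 8.98 ± 1.17 FPKM (WT) against 5.99 ± 1.25 FPKM (Het, SD, n = 3 each, unadjusted p 0.0397, adjusted p 0.753 by limma). It was the 1 of 9 (11.1%) lower in every Het heart, against 15.6% of all tested genes. Akap6, which anchors PKA at the nuclear envelope and sarcoplasmic reticulum of muscle cells, stood at 8.90 ± 1.85 FPKM for WT (SD, n = 3) and at 1.35, 9.39 and 9.72 FPKM for Het 1, 2 and 3. Akap11 stood at 3.46 ± 0.119 FPKM for WT (SD, n = 3) and at 1.39, 3.95 and 3.53 FPKM for Het 1, 2 and 3. Both were again low in Het 1 alone.

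Phosphodiesterases break down cAMP or cGMP, and 0 of 10 tested passed. Pde4a, a cAMP-specific member, was higher in all 3 Het hearts, at 7.06 ± 0.749 FPKM (WT) against 8.86 ± 0.562 FPKM (Het, SD, n = 3 each, difference 0.29, adjusted p 0.753 by limma). It was the 1 of 10 (10%) higher in every Het heart, against 1.83% of all tested genes. Lower in every Het heart were 0 of 10, against 15.6%. Pde1c stood at 2.64 ± 0.412 and 1.92 ± 1.07 FPKM, and Pde7a at 11.1 ± 2.87 and 8.87 ± 0.837 FPKM (SD, n = 3 each). The difference of Pde1c went, when Het 1 was left out, from −0.39 to −0.05. That of Pde7a went from −0.27 to −0.11 without WT 1, to −0.46 without WT 3 and to −0.33 without Het 1.

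Of 16 tested regulators that desensitize or tune receptors, 0 passed. Cav3, the muscle caveolin that gathers receptors and cyclases in caveolae, was lower in all 3 Het hearts, at 28.8 ± 1.61 FPKM (WT) against 20.9 ± 5.86 FPKM (Het, SD, n = 3 each, adjusted p 0.753 by limma). It was the 1 of 16 (6.25%) lower in every Het heart, against 15.6% of all tested genes. Its difference was −0.48, and −0.23 without Het 1, which stood at 14.2 FPKM. Arrb2, an arrestin, was highest in Het 1, at 7.15 FPKM against 2.59 to 3.70 FPKM in WT. Rgs2, which shortens Gq signals, was lowest in Het 1, at 1.80 FPKM against 7.52 to 17.9 FPKM in WT.

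Other cAMP effectors, with the CREB family and its coactivators, numbered 14 tested genes, and 0 passed. Bves and Popdc2, cAMP-binding Popeye proteins of heart muscle, were lower in every Het heart and lowest in Het 1. Popdc2 stood at 168 ± 10.7 FPKM for WT (SD, n = 3) and at 35.1, 138 and 154 FPKM for Het 1, 2 and 3. Bves stood at 11.6 ± 0.589 FPKM for WT (SD, n = 3) and at 2.02, 10.2 and 9.81 FPKM for Het 1, 2 and 3. Crem, a CREB relative that cAMP itself induces, was 1.25 ± 0.201 FPKM (WT) against 0.976 ± 0.0516 FPKM (Het, SD, n = 3 each). These 3 were the genes of the list lower in every Het heart (3 of 14, 21.4%, against 15.6% of all tested genes). Their adjusted p was 0.753 by limma.

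Among 14 tested PKA substrates and phosphatase regulators 0 passed, 2 were higher and 3 lower in every Het heart (14.3% and 21.4%, against 1.83% and 15.6% of all tested genes). The pore subunit of the L-type calcium channel, Cacna1c, was 12.3 ± 1.38 FPKM (WT) against 14.9 ± 0.567 FPKM (Het, SD, n = 3 each, difference 0.26, adjusted p 0.753 by limma). Phkg1, a catalytic subunit of phosphorylase kinase, was 3.79 ± 0.559 and 4.89 ± 0.170 FPKM, and Ppp1r2, an inhibitor of protein phosphatase 1, was 23.1 ± 0.914 and 18.2 ± 4.15 FPKM (SD, n = 3 each). Cacna1c and Phkg1 were the 2 higher genes, and Ppp1r2 was among the lower ones. Its difference was −0.35, and −0.16 without Het 1.

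The channels that M2 receptors open, encoded by Kcnj3 and Kcnj5, were low in Het 1, as Chrm2 was. Kcnj5 stood at 11.1, 9.35 and 12.5 FPKM (WT 1, 2 and 3) and at 1.76, 13.98 and 10.7 FPKM (Het 1, 2 and 3). Kcnj3 stood at 9.88 ± 1.40 FPKM for WT (SD, n = 3) and at 3.41, 13.5 and 11.3 FPKM for Het 1, 2 and 3. Neither passed (adjusted p 0.753 and 0.829 by limma).

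Genes that make, take up or break down the transmitters were mostly too low to test. Of 15, 10 were in the table and 4 passed the filter. Maob, a monoamine oxidase, stood at 14.4 ± 0.841 FPKM for WT (SD, n = 3) and at 1.78, 19.6 and 18.6 FPKM for Het 1, 2 and 3, on both sides of WT as Adrb1 was. Bche, butyrylcholinesterase, stood at 3.76 ± 0.310 FPKM for WT (SD, n = 3) and at 0.880, 3.58 and 3.94 FPKM for Het 1, 2 and 3. All 4 tested genes were at or below 50% of the WT mean in Het 1, where 33.8% of all tested genes were, and 0 of 4 passed.

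Genes known to be induced through cAMP and CREB had a median difference of −0.28 over 11 tested genes, of which 0 passed. Nr4a3, an orphan nuclear receptor, was lower in all 3 Het hearts, at 2.73, 2.01 and 2.75 FPKM (WT 1, 2 and 3) and 0.381, 0.574 and 1.95 FPKM (Het 1, 2 and 3). Its unadjusted p was 0.0200 and its adjusted p 0.753 by limma. In all, 3 of the 11 (27.3%) were lower in every Het heart, against 15.6% of all tested genes. Ppargc1a, the coactivator PGC-1alpha, was 29.8 ± 13.5 FPKM (WT) against 13.4 ± 9.42 FPKM (Het), and the kinase Sik1 was 15.5 ± 9.68 and 7.80 ± 3.50 FPKM (SD, n = 3 each). The difference of Ppargc1a was −1.31, and −0.60 without Het 1. That of Sik1 was −0.85, −0.40 without WT 3, which stood at 26.7 FPKM against 10.4 and 9.46 in WT 1 and 2, and −0.47 without Het 1. The list's medians were −0.88, −0.45 and −0.16 in Het 1, 2 and 3, each below the −0.45, −0.03 and −0.04 of all tested genes. Medians of single WT hearts were not computed. In WT 2, Nr4a3, Ppargc1a and Sik1 stood at −0.21, −0.22 and −0.51 from the WT mean, and Crem at 0.14. The −0.16 of Het 3 is therefore not shown to lie outside the WT spread.

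**Figure D5:**
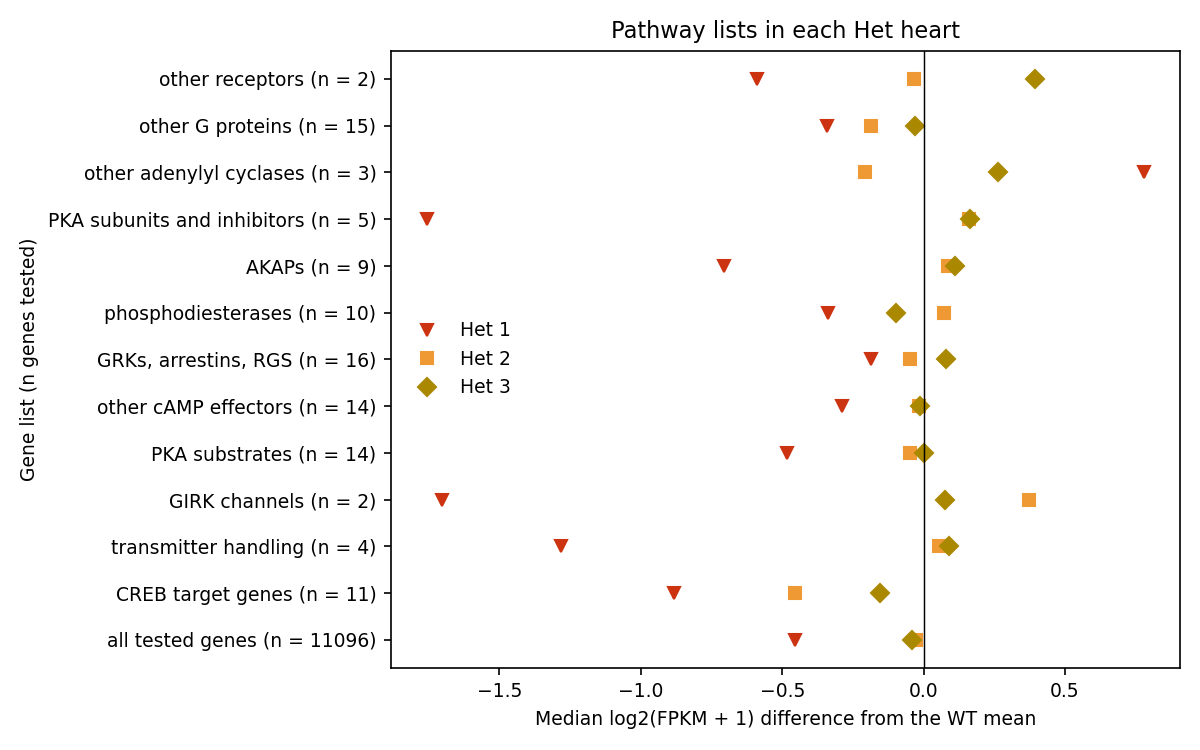
Median difference from the WT mean in log2(FPKM + 1) over the tested genes of each pathway list, 1 point per Het heart, with all tested genes in the last row. Het 1 is lowest for 11 of the 12 lists and highest for the other adenylyl cyclases, and CREB target genes lie below all tested genes in each Het heart. Medians of single WT hearts are not drawn, so the spread among WT hearts is not shown.

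The genes whose pattern over the 6 hearts was most like that of Adrb1 were Tcp11l2, Fam131a and Lrrc61. Their root mean square difference from it, in log2(FPKM + 1) centred on each gene's own mean, was 0.102, 0.122 and 0.134. For Chrm2 they were Gatd3a, H1f2 and Pcdh7, at 0.0454, 0.0859 and 0.102. Het 1 is the lowest heart for all 6 of these genes, as it is for Adrb1 and Chrm2. The genes were picked by likeness over these same hearts, so a low Het 1 follows from the choice.

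Some members share their locus with genes on the other strand in GENCODE M21, namely Gnas (Nespas and Gm20721), Chrm2 (9330158H04Rik), Adcy5 (Gm25179) and Adcy6 (Gm29331). The libraries were stranded, but the use of strand in counting is not stated in the sources used here, so reads of such pairs may not have been told apart. Each gene's value also sums over its isoforms.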

How the data were processed

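Per the labels' protocols, poly(A) RNA from hearts was fragmented and made into stranded libraries with dUTP. The submitters' processing notes list, with no roles given, the build mm10 and the tools HISAT2 2.0.4 and StringTie 1.3.4d, besides cutadapt 1.9, DESeq2 and edgeR. The deposited table holds FPKM, inferred from its values and from StringTie being named. Per the file headers it further holds fold change (a ratio), log2 fold change, −log10 p, q-value and p-value, all computed by the authors. It holds no counts, so absolute depth is unknown and no counting interval is given. The number of per-sample columns left unused was 0.

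FPKM was taken to log2(FPKM + 1), which understates changes of low genes. The test was limma 3.58.1 (R 4.3.3) on genes whose mean reached 1 FPKM (trend and robust eBayes, Benjamini-Hochberg, threshold 0.05), with no block. It was checked on data simulated with the WT spread in every library. No library there stood apart as Het 1 does, so that check does not cover such a heart. The labels call the samples separate mice, so p-values measure the spread between mice. Coordinates are those of GENCODE M21, GRCm38. The labels do not say that a replicate number pairs mice. Members, gene lists and tests were chosen with earlier results of these data known. Named were the members, Otub1, per list the 3 genes with the smallest unadjusted p, and the 3 genes nearest to Adrb1 and to Chrm2, with predicted genes left out. Values of 2 genes that this rule names are not reported here, although the list counts include them. Alternatives were a pseudocount of 0.1, filters of 0 and 5 FPKM, the replicate block, other scalings, library weights, plain eBayes, leaving out each heart and, chosen after seeing the data, centring on the median gene.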

Additional observations from a re-analysis of the deposited data

How the results depend on the processing

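The 9 members had no call under any of the 16 alternatives (lowest adjusted p 0.205, for Adrb1 with library weights), and neither did the 32 other named pathway genes (lowest 0.0736). Over all genes, 2 were called. The count was 1 with the replicate block, median-ratio scaling, quantile normalization or centring on the median gene, 22 with library weights (0.0486 for Het 1, 1.51 to 2.55 for the others), and 1 to 38 without single hearts, where it was 1 without any 1 WT heart and 8, 25 and 38 without Het 1, 2 and 3. It was 2 under the others.

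The difference of Otub1 was −1.19 with an adjusted p of 0.376. It passed with library weights (−1.07, adjusted p 0.00385) and without Het 1 (−1.06, adjusted p 0.0129), and was −1.26 to −1.06 without single hearts. With the replicate block the adjusted p of Otub1 was 0.832 and those of the members were 0.832 to 0.986. Deviations of same-numbered hearts from their group means correlated at −0.197, −0.435 and 0.211 across genes.

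Among members, sign changes touched Adrb1, Adra1a, Adcy6 and Gnas, all with differences near 0. Adrb1 was 0.11 with median-ratio scaling, 0.012 with scaling without mitochondrial genes, 0.12 with quantile normalization, 0.53 with library weights, 0.16 when centred, and −0.31 to 0.52 without single hearts. Adra1a was 0.038 with quantile normalization, 0.28 with library weights, 0.022 when centred, and −0.44 to 0.35 without single hearts. Adcy6 was 0.19, 0.00072 and 0.25 under the 3 scalings in the order above, 0.15 when centred, and −0.16 to 0.11 without single hearts. Gnas was 0.087 with quantile normalization. Adra1b, Chrm2, Gnai2, Adcy5 and Prkaca kept their sign in every fit. Without single hearts Prkaca was −1.54 to −0.04, Chrm2 −1.27 to −0.004 and Adra1b −1.18 to −0.08, nearest to 0 without Het 1. Neither Adrb1 nor Adra1a could be fitted with a mean of at least 5 FPKM.

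Of the other pathway genes, with library weights the signs turned for Adcy4 (−0.175), Adcy9 (0.39), Adra1d (0.17), Akap11 (0.072), Akap6 (0.035), Kcnj3 (0.25), Kcnj5 (0.11), Maob (0.34) and Pkia (0.21). Adcy9 was also 0.0034 with median-ratio scaling, 0.054 with quantile normalization and 0.073 when centred. Without single hearts the ranges were −0.18 to 0.31 for Adcy4, −0.39 to 0.46 for Adcy9, −0.58 to 0.20 for Adra1d, −0.44 to 0.086 for Akap11 and −0.99 to 0.11 for Akap6. They were −0.70 to 0.0021 for Bche, −0.56 to 0.30 for Kcnj3, −1.07 to 0.15 for Kcnj5, −1.06 to 0.38 for Maob and −1.03 to 0.26 for Pkia. The cause was not tested.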

Other observations

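Without Het 1, 15 of the 102 other pathway genes were below 0.05 by limma before adjustment (14.7%), where 12.4% of all tested genes did, and 0 passed. Maob was the one with the smallest (0.00443, adjusted p 0.251).

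The PKA substrate Pln, phospholamban, stood at 1611 ± 145 FPKM in WT (SD, n = 3) and at 301, 1674 and 1489 FPKM in Het 1, 2 and 3. Ryr2, the calcium release channel, stood at 32.8 ± 6.38 FPKM in WT (SD, n = 3) and at 10.9, 42.4 and 47.9 FPKM in Het. Rapgef3, the cAMP sensor Epac1, stood at 8.05 ± 1.298 FPKM in WT (SD, n = 3) and at 10.5, 5.46 and 5.74 FPKM in Het 1, 2 and 3. It was highest in Het 1, where Pln and Ryr2 were lowest, and below every WT heart in Het 2 and Het 3. These 3 genes were chosen after their values were seen.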
